A study of Mus musculus with 9 samples.

Results

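The genes described here encode the subunits of the transcription factor NF-kB and the proteins that hold it back, 10 genes chosen by name: the subunits Nfkb1, Nfkb2, Rel, Rela and Relb, Nfkbia and Nfkbie of the classical inhibitors, the nuclear inhibitor-like proteins Nfkbiz and Bcl3, and the ubiquitin-editing enzyme Tnfaip3. All 10 were found among the 56980 genes of the deposited table, and all 10 reached 1 TPM (a level scaled for transcript length and for the total of the library) in each of the 9 libraries. The cells were MH-S, an SV40-transformed line of murine alveolar macrophages. At 24 h, 3 libraries each were taken from cells given 20 µg/ml CuO NPs (copper oxide nanoparticles) with 10 µM TTM, from cells given 20 µg/ml CuO NPs alone, and from controls. TTM is not written out in the labels; tetrathiomolybdate, which binds copper, usually goes by these letters. No group received TTM without nanoparticles, so its values are known only beside them. The labels do not say whether the libraries of a group are separate cultures, and the p-values may therefore rest on a technical spread.

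NF-kB subunits work as dimers. In resting macrophages the inhibitors IκBα (Nfkbia) and IκBε (Nfkbie) keep dimers of Rela, Rel and the product of Nfkb1 out of action, and signals from Toll-like, interleukin-1 and TNF receptors lead the kinase complex IKK to mark these inhibitors for destruction. In the alternative pathway the precursor made from Nfkb2 is processed and joins Relb. Nfkbia, Nfkbie, Tnfaip3, Nfkb1, Nfkb2, Rel, Relb, Nfkbiz and Bcl3 are themselves textbook targets of NF-kB, which makes several of them feedback brakes.

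The promoters of 3 members are printed because these genes gave 3 unlike profiles below: Nfkbia was lowest with TTM, Tnfaip3 was lowest with CuO NPs alone, and Nfkb2 was higher in the treated cells. Each line holds the 250 bases before the first listed start site, 5′ to 3′, from RefSeq on build GRCm38.p6, and capitals mark matches on either strand to a kappaB-like motif of 10 bases (GGG, any 2 bases, TT, any 1 base, CC), where overlapping matches run together.
Nfkbia (chr12:55492648-55492897, minus strand): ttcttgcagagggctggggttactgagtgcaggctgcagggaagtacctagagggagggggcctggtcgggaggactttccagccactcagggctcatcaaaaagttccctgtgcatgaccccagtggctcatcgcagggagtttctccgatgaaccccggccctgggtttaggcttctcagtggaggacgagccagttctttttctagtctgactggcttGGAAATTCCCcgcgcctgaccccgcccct
Tnfaip3 (chr10:19015411-19015660, minus strand): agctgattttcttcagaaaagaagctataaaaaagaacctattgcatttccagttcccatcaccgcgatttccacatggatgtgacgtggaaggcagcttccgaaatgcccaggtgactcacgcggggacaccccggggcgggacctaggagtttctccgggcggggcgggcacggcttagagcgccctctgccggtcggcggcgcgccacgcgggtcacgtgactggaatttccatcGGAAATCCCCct
Nfkb2 (chr19:46304487-46304736, plus strand): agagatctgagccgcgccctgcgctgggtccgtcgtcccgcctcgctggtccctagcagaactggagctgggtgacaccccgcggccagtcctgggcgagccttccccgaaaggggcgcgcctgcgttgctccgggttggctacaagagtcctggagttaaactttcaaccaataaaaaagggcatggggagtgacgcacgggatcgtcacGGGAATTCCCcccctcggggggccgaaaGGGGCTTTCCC

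RefSeq promoters were at hand for 7 of the 10 members, and 4 of these 7, Nfkbia, Tnfaip3, Nfkb2 and Rel, had at least 1 match before a listed start. Rel held GGGAAATCCCC, beginning 92 bases before its start. Among all 27025 genes with a promoter entry, 4.71% had a match in such a window, and a gene with several start sites had several chances. The motif letters were chosen with these promoters in view, so the share among the members is a description, and a match shows only that the letters are present. Nfkbie, Rela and Bcl3 had no match to these letters. Other forms of a kappaB motif were not searched, so a promoter without a match may still hold one. Whether the motif bears on the profiles below was not tested.

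Facts of the whole series bear on how these levels are read. Each library had 19710 to 20863 genes above 0, and sequencing depth is unknown because TPM keeps no record of reads. Of 14 macrophage markers, 12 averaged at least 1 TPM, while Siglecf, a defining surface marker of alveolar macrophages, was at most 0.09 TPM in any library and Mrc1 at most 0.88 TPM. The summed macrophage markers ranged over 2252 to 2392 TPM with CuO NPs + TTM, 1784 to 1832 TPM with CuO NPs and 3404 to 3462 TPM in controls. Single markers did not all follow the sum. Itgax had 9.83 to 10.16 TPM with CuO NPs + TTM and 7.72 to 8.56 TPM in controls. Csf1r had 39.4 to 51.7 TPM with CuO NPs + TTM and 77.0 to 97.8 TPM with CuO NPs, and Spi1 had 90.3 to 106 and 124 to 140 TPM. Of 6 neutrophil markers 4 averaged at least 1 TPM. The sums over the 6, mostly S100a8, were 64.2 to 71.9 TPM with CuO NPs + TTM, 201 to 223 TPM with CuO NPs and 384 to 402 TPM in controls. Mpo and Elane had at most 0.33 and 0.47 TPM. Ly6g did not follow the sums, with 0.08 to 0.21, 2.37 to 3.06 and 0.08 to 0.5 TPM in the same order of groups. It averaged 1 TPM only through the CuO NP libraries. Camp had 0.39 to 1.28, 1.99 to 3.1 and 1.53 to 2.24 TPM. None of 8 epithelial and 8 lymphocyte markers averaged 1 TPM, and 1 of 7 fibroblast and 1 of 5 endothelial markers did, Postn and Vwf. These sums moved with the groups, their part in the results below was not tested, and in bulk RNA fewer cells of a type and less RNA per cell cannot be told apart. Mitochondrially encoded mRNAs took 11.4 to 13.4% of TPM with CuO NPs + TTM, 15.7 to 16.1% with CuO NPs and 12.6 to 13.5% in controls. The median tested gene had a log2 fold change of -0.12 for CuO NPs against control, 0.12 between the treated groups and 0.00 for CuO NPs + TTM against control.

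Nfkbia and Nfkbie, classical inhibitors, fell with CuO NPs and were lower still with TTM, unlike Nfkbib, a classical inhibitor outside the 10 genes that rose with CuO NPs and is described with the rest of its family. On the scale of log2(TPM + 1), Nfkbia gave the largest change of the 10 genes in both comparisons of the TTM libraries. Tnfaip3 gave the largest for CuO NPs against control. The order depends on that scale. By TPM ratio Nfkbie fell further between the treated groups, to 0.524 times against 0.568 times for Nfkbia. Nfkbia (ENSMUSG00000021025), which encodes IκBα, had 66.6, 53.3 and 52.2 TPM with CuO NPs + TTM, 100.1, 104 and 98.96 TPM with CuO NPs, and 182, 174 and 171 TPM in controls. No library of any group overlapped another group, and the TTM libraries were lowest. For CuO NPs against control the change on the scale of log2(TPM + 1) was -0.79 ± 0.083 (SE) with a limma adjusted p = 6.85e-05, where calls were made at an adjusted p below 0.05 over all 12904 genes tested. With TTM it fell again, with a log2 change of -0.81 ± 0.083 against CuO NPs (SE, limma adjusted p = 4.72e-05). Set against control, CuO NPs + TTM gave -1.60 (limma adjusted p = 6.01e-07), a level 0.327 times that of controls. Relative to the median gene, the changes were -0.67 for CuO NPs against control and -0.93 for CuO NPs + TTM against CuO NPs. These comparisons share libraries, so they are not independent of each other.

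Nfkbie (ENSMUSG00000023947), the gene of IκBε, was the least abundant of the 10 and had the same order of groups. It had 1.92, 1.80 and 2.16 TPM with CuO NPs + TTM, 3.59, 4.13 and 3.51 TPM with CuO NPs, and 5.40, 5.34 and 5.19 TPM in controls, with no overlap between groups. Its log2 fold change was -0.41 for CuO NPs against control (limma adjusted p = 0.00953). Between the treated groups it was -0.68 (limma adjusted p = 4.41e-04), and CuO NPs + TTM set against control gave -1.09 (limma adjusted p = 1.92e-05). The pseudocount of 1 TPM shrinks the changes of so low a gene, whose TPM ratio for CuO NPs + TTM against control was 0.369; a pseudocount of 5 TPM gave -0.24, -0.33 and -0.57 in the same order of comparisons, all still called. The call for CuO NPs against control was lost with median centring, which sets the median tested gene of every library to the same level (-0.23, limma adjusted p = 0.0616). Over the 19 alternatives the limma adjusted p ran from 0.00486 to 0.0616. With the filter at 5 TPM the gene was tested only because the controls reached that level, so that setting is no support.

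**Figure D1:**
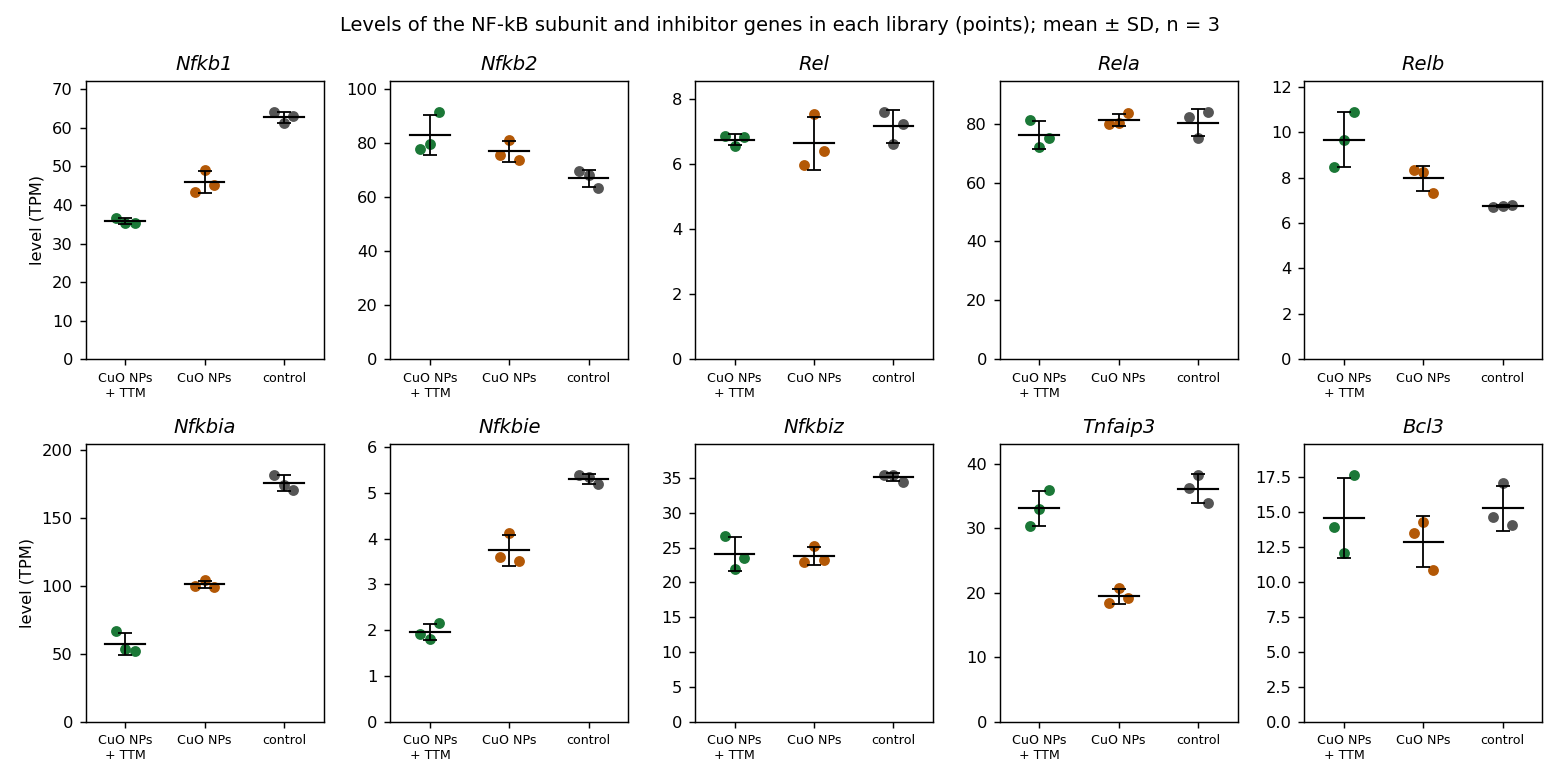
Level in TPM of each of the 10 genes, 1 panel a gene, in cells given CuO NPs + TTM, CuO NPs and in controls. Points are the 3 libraries of a group and bars the mean ± SD. Nfkbia, Nfkbie and Nfkb1 step down to the left without overlap, while Tnfaip3 is lowest with CuO NPs alone.

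Tnfaip3 had another profile. It encodes A20, an enzyme that removes and adds ubiquitin chains on signalling proteins above IKK and so damps NF-kB activation. Tnfaip3 (ENSMUSG00000019850) had 30.4, 33.0 and 35.9 TPM with CuO NPs + TTM, 18.4, 20.7 and 19.3 TPM with CuO NPs, and 36.3, 38.3 and 33.9 TPM in controls. The CuO NP libraries lay below all others, and the TTM and control libraries overlapped. With CuO NPs it fell against control, by a log2 change of -0.86 ± 0.078 (SE, limma adjusted p = 2.66e-05), and with TTM it rose against CuO NPs by 0.73 ± 0.078 (SE, limma adjusted p = 5.87e-05). Between TTM-treated cells and controls the change was -0.13 (95% confidence interval -0.30 to 0.05, limma adjusted p = 0.198), so a shortfall within that interval is not excluded. Relative to the median gene, Tnfaip3 gave -0.74 for CuO NPs against control and 0.62 for CuO NPs + TTM against CuO NPs. Within a library, where scaling cancels out, the ratio of Tnfaip3 to Nfkbia was 0.457, 0.619 and 0.687 with CuO NPs + TTM, 0.184, 0.199 and 0.195 with CuO NPs, and 0.200, 0.220 and 0.199 in controls.

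Of the nuclear inhibitor-like genes, Nfkbiz fell with CuO NPs, with and without TTM, and Bcl3 was not called in any comparison. Nfkbiz (ENSMUSG00000035356) encodes IκBζ, which helps switch on secondary inflammatory genes in macrophages. It had 26.7, 21.9 and 23.6 TPM with CuO NPs + TTM, 22.9, 25.3 and 23.2 TPM with CuO NPs, and 35.5, 35.5 and 34.5 TPM in controls. Both treated groups lay below the controls and overlapped each other. The log2 fold change was -0.54 for CuO NPs against control (limma adjusted p = 3.84e-04) and -0.53 for CuO NPs + TTM against control (limma adjusted p = 2.66e-04). Between the treated groups it was 0.01 (95% confidence interval -0.16 to 0.18, limma adjusted p = 0.912), and this value turned negative and was called under median centring (-0.18, adjusted p = 0.0363; the 19 alternatives ran from 0.0363 to 0.985).

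Bcl3 (ENSMUSG00000053175), which encodes a nuclear partner of the DNA-binding subunits made from Nfkb1 and Nfkb2, had 13.9, 12.04 and 17.6 TPM with CuO NPs + TTM, 13.5, 14.2 and 10.8 TPM with CuO NPs, and 14.6, 17.1 and 14.0 TPM in controls. All groups overlapped. Its log2 fold change for CuO NPs against control was -0.23, with a 95% confidence interval of -0.56 to 0.09 (limma adjusted p = 0.227).

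Among the subunits, Nfkb1 fell in both treated groups, while Nfkb2 and Relb rose with CuO NPs + TTM against control. Nfkb1 (ENSMUSG00000028163), whose product pairs with Rela in the classical dimer, had 36.7, 35.3 and 35.3 TPM with CuO NPs + TTM, 43.4, 49.2 and 45.3 TPM with CuO NPs, and 64.2, 61.3 and 63.0 TPM in controls. As for Nfkbia, the 3 groups did not overlap and the TTM libraries were lowest. Its log2 fold change was -0.44 ± 0.056 (SE) for CuO NPs against control (limma adjusted p = 2.09e-04). The TTM libraries gave a log2 change of -0.35 ± 0.056 against CuO NPs (SE, limma adjusted p = 6.29e-04) and of -0.80 ± 0.056 against control (SE, limma adjusted p = 3.60e-06).

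Nfkb2 (ENSMUSG00000025225) encodes the precursor of the alternative pathway. It had 77.8, 79.5 and 91.5 TPM with CuO NPs + TTM, 75.6, 81.2 and 73.8 TPM with CuO NPs, and 69.5, 68.0 and 63.3 TPM in controls. Both treated groups lay above the controls and overlapped each other. With TTM it was higher than in controls by a log2 change of 0.30 ± 0.071 (SE, limma adjusted p = 0.00510). The call for CuO NPs against control stood at the threshold, at 0.20 ± 0.071 (SE, limma adjusted p = 0.0489). It was lost when any of the 6 libraries compared, or CuO NPs + TTM replicate 2, was left out, with log2 fold changes of 0.16 to 0.22 and adjusted p of 0.0590 to 0.150, and with the replicate number as a block (replicate block, adjusted p = 0.0887). For CuO NPs against control the call held, with a larger change, under median-of-ratios scaling (0.33, limma adjusted p = 0.00509) and median centring (0.38, limma adjusted p = 0.00238). The same was so with quantile normalization (0.29, limma adjusted p = 0.00910) and without mitochondrially encoded genes (0.25, limma adjusted p = 0.0162). Against CuO NPs, the TTM libraries gave 0.11 (95% confidence interval -0.05 to 0.26, limma adjusted p = 0.236), and -0.08 under median centring.

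In the mouse annotation used for names, Nfkb2 overlaps Psd and AC114539.1 on the opposite strand, and strand-aware counting is not stated. Psd had 16.8, 15.7 and 15.8 TPM with CuO NPs + TTM, 16.4, 19.9 and 16.5 TPM with CuO NPs, and 20.7, 22.4 and 20.4 TPM in controls, so it ran lower in treated cells where Nfkb2 ran higher. AC114539.1 had at most 11.7 TPM in any library and was also lower in treated cells. Bcl3 overlaps Gm16175 and Gm16174 on the opposite strand, at most 2.27 and 1.64 TPM.

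Relb (ENSMUSG00000002983), the partner of processed Nfkb2, had 8.47, 9.67 and 10.9 TPM with CuO NPs + TTM, 8.36, 8.23 and 7.33 TPM with CuO NPs, and 6.71, 6.73 and 6.79 TPM in controls. The 3 groups did not overlap, and the order was the reverse of that of Nfkb1. The rise passed the test for CuO NPs + TTM against control, at 0.46 ± 0.099 (SE, limma adjusted p = 0.00320). CuO NPs against control gave 0.21 (limma adjusted p = 0.115), which was called under median-of-ratios scaling (0.33, adjusted p = 0.0300), median centring (0.39, adjusted p = 0.0143) and quantile normalization (0.37, adjusted p = 0.0230); the 19 alternatives ran from 0.0143 to 0.255. Between the treated groups Relb gave 0.25 (limma adjusted p = 0.0591), which was called without CuO NPs + TTM replicate 1 (0.33, adjusted p = 0.0200; the alternatives ran from 0.0200 to 0.884).

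Rela and Rel, the subunits that carry the activation domain in classical dimers, were not called in any of the 3 comparisons. Rela (ENSMUSG00000024927) had 81.4, 72.0 and 75.1 TPM with CuO NPs + TTM, 79.99, 80.3 and 83.5 TPM with CuO NPs, and 82.2, 75.0 and 84.0 TPM in controls. Rel (ENSMUSG00000020275), the subunit c-Rel of blood cells, had 6.85, 6.54 and 6.82 TPM with CuO NPs + TTM, 5.96, 7.54 and 6.38 TPM with CuO NPs, and 7.59, 6.61 and 7.23 TPM in controls. For each of the pair every group overlapped every other. The 95% confidence intervals of the log2 fold change for CuO NPs + TTM against control were -0.21 to 0.06 for Rela and -0.29 to 0.15 for Rel, so changes within these intervals are not excluded. For Rela the reading depended on the scaling. Against control, CuO NPs gave 0.02 with TPM (limma adjusted p = 0.847) and 0.20 under median centring (adjusted p = 0.0273; the alternatives ran from 0.0273 to 0.982). Between the treated groups it gave -0.09 (limma adjusted p = 0.218), then -0.22 with median-of-ratios scaling (adjusted p = 0.0114) and -0.28 with median centring (adjusted p = 0.00360), and the alternatives ran from 0.00360 to 0.519.

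**Figure D2:**
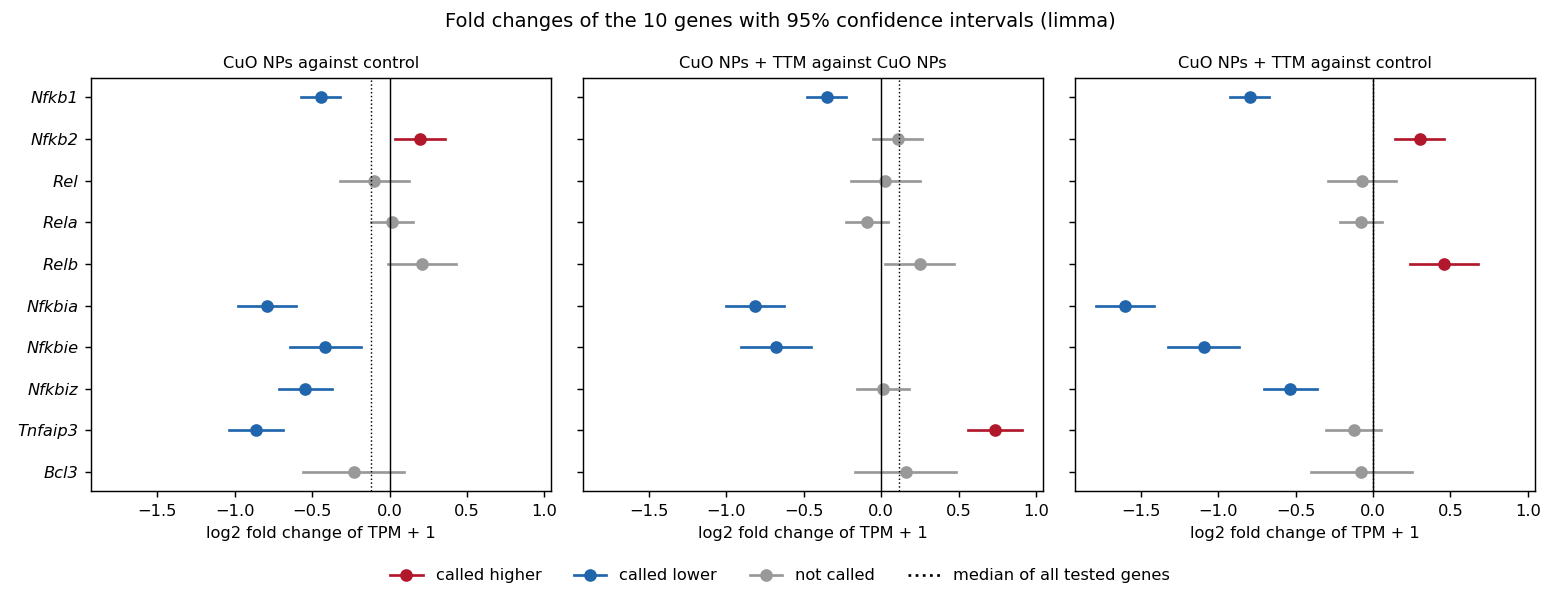
Log2 fold change of TPM + 1 for the 10 genes in the 3 comparisons, with 95% confidence intervals from limma. Red marks genes called higher, blue genes called lower and grey genes not called, and the dotted line is the median of all tested genes. Nfkbia lies lowest with CuO NPs + TTM against control, at -1.60.

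Counted over the 10 genes, CuO NPs against control called 6, of which Nfkb2 was higher and Nfkb1, Nfkbia, Nfkbie, Nfkbiz and Tnfaip3 were lower. Of all tested genes 41.9% were called in that comparison, 11.8% higher and 30.1% lower, and with median-of-ratios scaling 2534 genes were higher and 2628 lower in place of 1518 and 3890. The 3 libraries of one group did not overlap those of the other for 7 of the 10 genes (2 higher, 5 lower), against 53% of all genes (15.5% higher, 37.5% lower). The median log2 fold change was -0.32 over the 10 genes and -0.12 over all genes. Between the treated groups 4 of the 10 were called, Tnfaip3 higher and Nfkb1, Nfkbia and Nfkbie lower, where 53.1% of all tested genes were called, 34.6% higher and 18.5% lower. With median-of-ratios scaling 3422 genes were higher and 3509 lower there, in place of 4469 and 2384. Groups did not overlap for 5 of the 10 genes (2 higher, 3 lower), against 59.4% of all genes (38.2% higher, 21.2% lower), and the median was 0.02 over the 10 genes. With CuO NPs + TTM against control 6 were called, Nfkb2 and Relb higher and Nfkb1, Nfkbia, Nfkbie and Nfkbiz lower, against 55.5% of all tested genes, 27.3% higher and 28.2% lower. There 6 of the 10 did not overlap (2 higher, 4 lower), against 63.1% of all genes (31.3% higher, 31.9% lower), and the median was -0.10 over the 10 genes. With so many genes called, these counts are no result about the 10 genes.

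The order of levels among the 10 genes also differed between groups. In controls Nfkbia was highest, at 176 ± 5.70 TPM (SD, n = 3, as for all means given), above Rela at 80.4 ± 4.73 TPM. Nfkb2 and Nfkb1 followed at 66.9 ± 3.22 and 62.8 ± 1.44 TPM, and their libraries overlapped. Next came Tnfaip3 and Nfkbiz, which also overlapped, then Bcl3, then Rel and Relb, which overlapped as well, and last Nfkbie at 5.31 ± 0.108 TPM.

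With CuO NPs, Nfkbia was still highest at 101 ± 2.66 TPM, and Rela and Nfkb2 overlapped behind it. With CuO NPs + TTM, Nfkbia came after Nfkb2 at 82.9 ± 7.48 TPM and Rela at 76.2 ± 4.78 TPM, both without overlap with its 57.4 ± 8.03 TPM, while Nfkb2 and Rela overlapped each other. Nfkb1 and Tnfaip3 overlapped there as well, at 35.8 ± 0.765 and 33.1 ± 2.72 TPM.

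Ratios between genes of one library do not depend on scaling. The 5 subunits together had 211 ± 8.28 TPM with CuO NPs + TTM, 219 ± 6.91 TPM with CuO NPs and 224 ± 6.19 TPM in controls. Nfkbia and Nfkbie together had 59.3 ± 7.98 TPM with CuO NPs + TTM, 105 ± 2.99 TPM with CuO NPs and 181 ± 5.80 TPM in controls. The ratio of these inhibitors to the subunits was 0.325, 0.271 and 0.248 with CuO NPs + TTM, 0.486, 0.478 and 0.474 with CuO NPs, and 0.813, 0.825 and 0.783 in controls. The result depends on which inhibitors are summed. With Nfkbib added, a choice made after the values were seen, the 3 inhibitors had 125 ± 11.1 TPM with CuO NPs + TTM, 201 ± 5.94 TPM with CuO NPs and 231 ± 2.43 TPM in controls. Their ratio to the subunits was then 0.649, 0.569 and 0.553 with CuO NPs + TTM, 0.941, 0.913 and 0.901 with CuO NPs, and 1.02, 1.06 and 1.02 in controls. By either sum the 3 groups did not overlap, but with Nfkbib the CuO NP libraries lay close below the controls and the TTM libraries far below both. These are ratios of mRNA levels, not of proteins.

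Among the subunit mRNAs, Nfkb2 took 36.8 to 41.7% with CuO NPs + TTM, 34.1 to 35.8% with CuO NPs and 28.2 to 31.2% in controls. Nfkb1 took 16.1 to 17.4% with CuO NPs + TTM, 20.3 to 21.7% with CuO NPs and 27.9 to 28.2% in controls. The level of Nfkb2 was thus 2.32 ± 0.242 times that of Nfkb1 with CuO NPs + TTM, 1.67 ± 0.0595 times with CuO NPs and 1.07 ± 0.0545 times in controls. Rela took 36.1 ± 2.24% with CuO NPs + TTM, 37.2 ± 1.59% with CuO NPs and 35.9 ± 1.49% in controls, differences within the spread of the libraries.

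**Figure D3:**
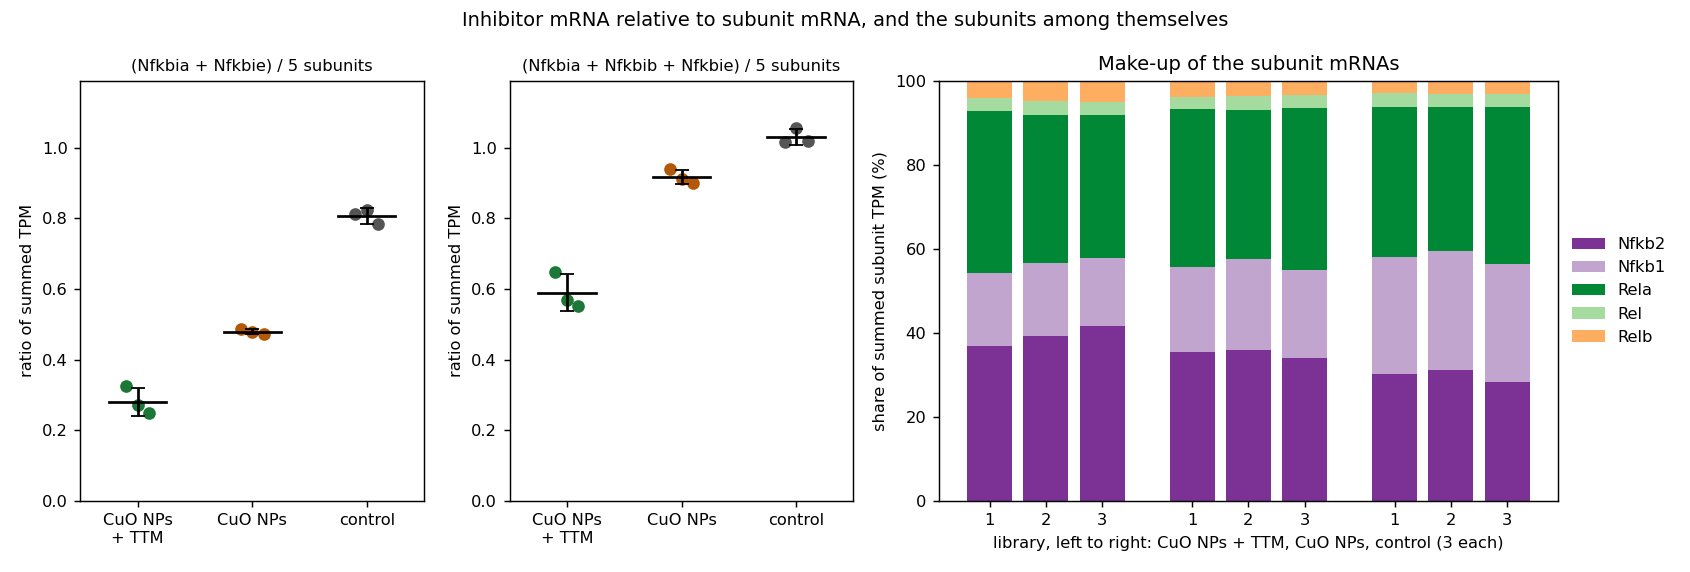
Left and middle, summed TPM of Nfkbia and Nfkbie, without and with Nfkbib, divided by the summed TPM of the 5 subunit genes, with points for libraries and bars for mean ± SD of 3. Right, share of each subunit in the summed subunit TPM of each library, in percent. Without Nfkbib the ratio is 0.248 to 0.325 with CuO NPs + TTM, 0.474 to 0.486 with CuO NPs and 0.783 to 0.825 in controls, with Nfkbib it is 0.553 to 0.649, 0.901 to 0.941 and 1.02 to 1.06 in the same groups, and the share of Nfkb1 shrinks as that of Nfkb2 grows.

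The remaining genes of the IκB family moved apart. Nfkbib (ENSMUSG00000030595), which encodes IκBβ, a classical inhibitor outside the 10, had 68.4, 60.5 and 67.1 TPM with CuO NPs + TTM, 96.96, 98.6 and 92.4 TPM with CuO NPs, and 46.5, 50.6 and 53.2 TPM in controls. It rose with CuO NPs against control (log2 fold change 0.93, limma adjusted p = 5.79e-06) and fell with TTM against CuO NPs (-0.55, limma adjusted p = 1.20e-04), which was the opposite of Tnfaip3 in both. Nfkbid, a nuclear family member, had 15.4 ± 1.22 TPM with CuO NPs + TTM, 22.1 ± 0.557 TPM with CuO NPs and 26.8 ± 0.349 TPM in controls, and it was called lower in all 3 comparisons.

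The ligands and receptors that feed the pathway were mostly lower. Of 12 tested, 10 fell and none rose with CuO NPs against control, 9 fell and 1 rose with CuO NPs + TTM against CuO NPs, and 11 fell and none rose with CuO NPs + TTM against control. Of all tested genes, 30.1%, 18.5% and 28.2% fell and 11.8%, 34.6% and 27.3% rose in these comparisons, in that order. The list medians were -0.43, -0.44 and -0.84, against -0.12, 0.12 and 0.00 for all genes. This list and those below were chosen with earlier results of these data known, so their shares and medians are a description. Tlr2, a receptor for bacterial lipoproteins, had 16.0 ± 1.59 TPM with CuO NPs + TTM, 40.1 ± 0.766 TPM with CuO NPs and 62.3 ± 2.41 TPM in controls. Tnf, the cytokine that activates the classical pathway, had 15.3 ± 1.96 TPM with CuO NPs + TTM, 41.0 ± 1.97 TPM with CuO NPs and 50.1 ± 1.58 TPM in controls. Il1b had 0.620 ± 0.226 TPM with CuO NPs + TTM, 8.42 ± 1.23 TPM with CuO NPs and 17.9 ± 1.38 TPM in controls. Tlr4, the receptor for lipopolysaccharide, and Tnfrsf11a, the receptor RANK, fell with CuO NPs against control, with log2 fold changes of -0.93 (limma adjusted p = 2.01e-04) and -0.98 (limma adjusted p = 4.49e-04).

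Of the 18 adaptors and kinases above IKK, 8 fell and 1 rose with CuO NPs against control, 5 fell and 6 rose with CuO NPs + TTM against CuO NPs, and 9 fell and 2 rose with CuO NPs + TTM against control. The shares that fell were 44.4%, 27.8% and 50%, against 30.1%, 18.5% and 28.2% of all genes, and the shares that rose were 5.56%, 33.3% and 11.1%, against 11.8%, 34.6% and 27.3%. Myd88, the adaptor of Toll-like and interleukin-1 receptors, had 46.5, 39.3 and 38.0 TPM with CuO NPs + TTM, 68.0, 65.6 and 63.6 TPM with CuO NPs, and 101.6, 97.6 and 95.4 TPM in controls, stepping down as Nfkbia did. Irak3, a brake on that adaptor's signal, had 34.9 ± 1.12 TPM with CuO NPs + TTM, 57.8 ± 3.63 TPM with CuO NPs and 88.9 ± 0.812 TPM in controls. Birc3, a ubiquitin ligase of the TNF receptor complex and itself a target of NF-kB, had 39.4 ± 1.99 TPM with CuO NPs + TTM, 22.8 ± 1.38 TPM with CuO NPs and 54.8 ± 1.10 TPM in controls, so it was lowest with CuO NPs alone, as Tnfaip3 was. Irak1, a kinase next to Myd88, rose with TTM against CuO NPs by a log2 fold change of 0.70 (limma adjusted p = 5.74e-05). The kinase Ripk1 fell with CuO NPs + TTM against control, with a log2 fold change of -0.72 (limma adjusted p = 6.06e-05).

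Of the 6 IKK and IKK-related kinases, 2 fell with CuO NPs against control, 3 rose with CuO NPs + TTM against CuO NPs, and 3 fell and 1 rose with CuO NPs + TTM against control. With 6 genes, and 30.1%, 18.5% and 28.2% of all genes lower and 11.8%, 34.6% and 27.3% higher in these comparisons, the counts are no result about the list. Ikbke, an IKK-related kinase, had 27.1 ± 2.09 TPM with CuO NPs + TTM, 20.6 ± 1.22 TPM with CuO NPs and 47.4 ± 3.73 TPM in controls. Map3k14, the kinase NIK of the alternative pathway, had 5.19 ± 0.495 TPM with CuO NPs + TTM, 5.86 ± 1.03 TPM with CuO NPs and 8.36 ± 0.758 TPM in controls, and it fell in both treated groups against control (limma adjusted p = 0.0157 for CuO NPs and 0.00276 for CuO NPs + TTM), where Nfkb2 and Relb ran higher. Chuk and Tbk1 rose with TTM against CuO NPs by log2 fold changes of 0.22 each, and Ikbkb fell with CuO NPs + TTM against control, at -0.23 (limma adjusted p = 0.0482).

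Of 16 genes of ubiquitin editing and IκB degradation, 6 fell and none rose with CuO NPs against control, 5 fell and 6 rose with CuO NPs + TTM against CuO NPs, and 6 fell and 3 rose with CuO NPs + TTM against control. The shares that fell were 37.5%, 31.3% and 37.5%, against 30.1%, 18.5% and 28.2% of all genes, and the shares that rose were 0%, 37.5% and 18.8%, against 11.8%, 34.6% and 27.3%. Cyld, a deubiquitinase that damps the pathway as A20 does, had 14.1 ± 0.168 TPM with CuO NPs + TTM, 7.58 ± 0.257 TPM with CuO NPs and 9.87 ± 0.73 TPM in controls. Rnf31, the catalytic subunit of the linear ubiquitin ligase, had 14.6 ± 1.11 TPM with CuO NPs + TTM, 8.23 ± 0.605 TPM with CuO NPs and 12.5 ± 1.63 TPM in controls. Its partner Rbck1 rose with CuO NPs + TTM against control by a log2 fold change of 0.62 (limma adjusted p = 5.47e-06), and Cul1, the scaffold of the ligase that marks IκBα, fell, at -0.60 (limma adjusted p = 9.92e-04). Tnip3, which binds A20, had 3.31 ± 0.885 TPM with CuO NPs + TTM, 10.6 ± 1.63 TPM with CuO NPs and 15.8 ± 0.872 TPM in controls. Tnip1, another A20-binding protein, fell with CuO NPs against control, at -0.44 (limma adjusted p = 0.00113).

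Of 5 coactivators and nuclear regulators, 2 fell with CuO NPs against control, 1 fell and 1 rose with CuO NPs + TTM against CuO NPs, and 1 fell with CuO NPs + TTM against control. Of all genes 30.1%, 18.5% and 28.2% were lower and 11.8%, 34.6% and 27.3% higher, so counts over 5 genes are no result about them. Pdlim2, which sends nuclear Rela to degradation, had 18.6 ± 0.467 TPM with CuO NPs + TTM, 26.5 ± 1.10 TPM with CuO NPs and 33.5 ± 2.46 TPM in controls. Commd1, known both for copper handling and for ending Rela binding to DNA, had 42.8 ± 3.66 TPM with CuO NPs + TTM, 33.0 ± 4.61 TPM with CuO NPs and 40.9 ± 3.83 TPM in controls, with limma adjusted p = 0.0492 for CuO NPs against control and 0.0184 for CuO NPs + TTM against CuO NPs.

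Genes known as NF-kB targets moved in both directions with CuO NPs and were mostly lower with TTM added. Of 39 listed 32 were tested; 16 fell and 6 rose with CuO NPs against control, 21 fell and 6 rose with CuO NPs + TTM against CuO NPs, and 25 fell and 3 rose with CuO NPs + TTM against control. The shares that fell were 50%, 65.6% and 78.1%, against 30.1%, 18.5% and 28.2% of all genes, and the shares that rose were 18.8%, 18.8% and 9.38%, against 11.8%, 34.6% and 27.3%. For CuO NPs against control falls outnumbered rises among the targets in about the proportion seen over all genes, 3890 lower and 1518 higher. Their median log2 fold changes were -0.28, -0.67 and -0.76, against -0.12, 0.12 and 0.00 for all genes. Tnf, Il1a, Il1b and Cd40 are also in the list of ligands and receptors. Birc3 is also among the adaptors and Ikbke among the IKK-related kinases, so the lists are not independent of each other. The chemokine gene Ccl2 had 56.0 ± 18.1 TPM with CuO NPs + TTM, 166 ± 14.8 TPM with CuO NPs and 856 ± 43.5 TPM in controls. Ccl7 had a log2 fold change of -4.60 and the growth factor gene Csf3 one of -4.36 with CuO NPs + TTM against control. Traf1, an adaptor of TNF receptors, fell with TTM against CuO NPs, with a log2 fold change of -1.83 (limma adjusted p = 6.71e-05). Cxcl2, a neutrophil chemokine, had 91.7 ± 23.8 TPM with CuO NPs + TTM, 342 ± 7.19 TPM with CuO NPs and 179 ± 13.1 TPM in controls, so it rose with CuO NPs against control (log2 fold change 0.93, limma adjusted p = 9.74e-04) and fell with TTM against CuO NPs (-1.92, limma adjusted p = 1.12e-05). The other 5 targets that rose with CuO NPs against control, named after their values were seen, were Cxcl10 (0.80), Ccl5 (0.76), Saa3 (0.68), Il12b (0.60) and Junb (0.35), given as log2 fold changes. Il12b lay near the filter for testing, at 1.38 ± 0.240 TPM with CuO NPs and 0.570 ± 0.0985 TPM in controls. It was tested only because the CuO NP libraries reached 1 TPM, so its place among the rises is no result. The 3 that rose with CuO NPs + TTM against control were Saa3 (0.64), Cflar (0.35) and Nos2 (0.32).

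**Figure D4:**
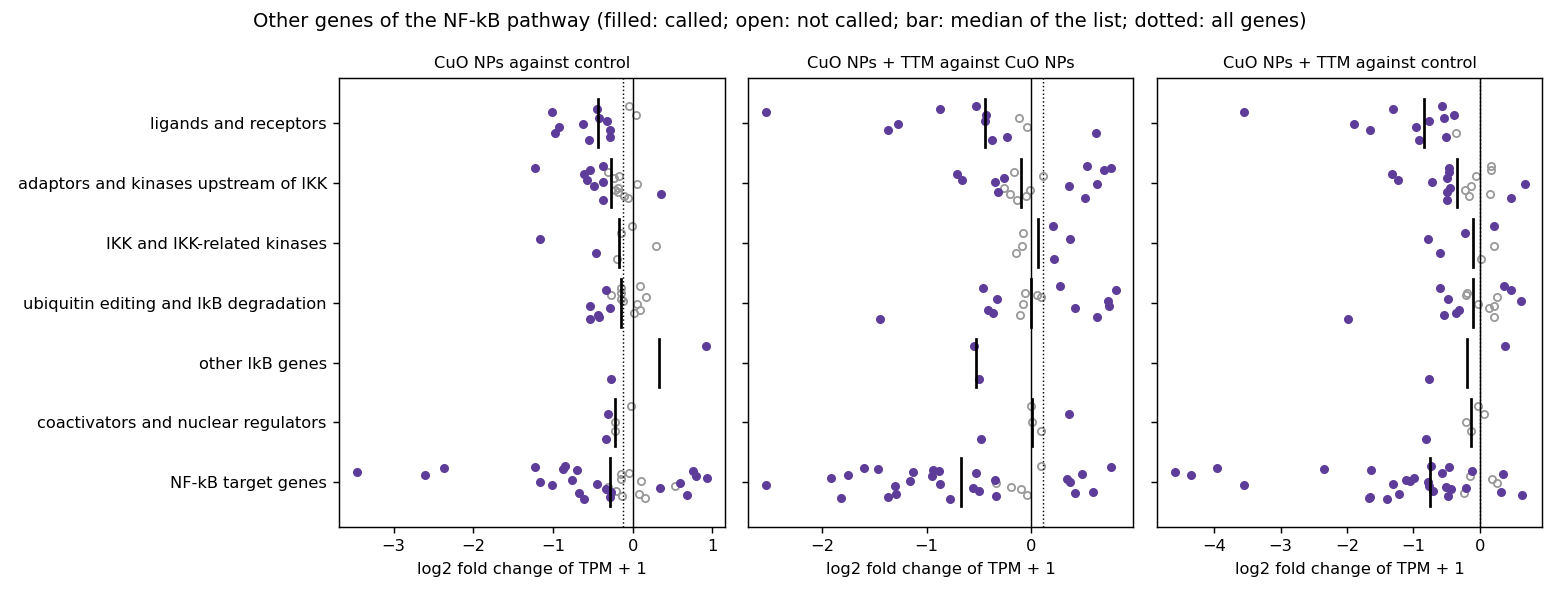
Log2 fold change of TPM + 1 for the other tested genes of the pathway, 1 row a list and 1 panel a comparison. Filled points were called and open points were not, black bars are list medians and the dotted line is the median of all genes. The ligands and receptors and the targets lie mostly left of 0 in all 3 panels, with medians of -0.84 and -0.76 for CuO NPs + TTM against control. Tnf, Il1a, Il1b and Cd40 stand in both lists.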

How the data were processed

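Gene levels of 9 poly(A) libraries were used as the authors deposited them, in TPM written with 2 decimals. The submitters' processing notes name build GRCm39 and the tools HISAT2, fastp, DESeq2 and RSEM; their versions and roles are not given in the sources used here, nor whether reads were counted by strand. Per the labels' protocols the kit was stranded. Symbols came from GENCODE release M21 by Ensembl identifier and matched 52073 of 56980 genes. That annotation is for GRCm38, so it gave only names, chromosomes and neighbours, and promoter sequences carry their own build.

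Genes with at least 1 TPM in at least 3 libraries were tested, 12904 in all. All 9 libraries entered 1 linear model of log2(TPM + 1) by group in limma 3.58.1 (R 4.3.3), with two-sided moderated tests whose prior variance followed mean level. It gave 3 comparisons, each adjusted by Benjamini-Hochberg over all genes tested. The fit was tested on simulated data. Tables and plots used Python 3.11.15, pandas 2.3.3 and matplotlib 3.10.9. The members and pathway lists were chosen with earlier results of these data known. Of each list, up to 3 called genes with the largest changes were named per comparison, the IκB genes all. Alternatives were 4 scalings (median-of-ratios, median centring, quantile, and TPM without mitochondrially encoded genes), pseudocounts of 0.1 and 5, no filter and one at 5 TPM, a fit of the compared groups, a replicate block, and each library left out.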

Additional observations from a re-analysis of the deposited data

How the results depend on the processing

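Over 19 alternatives a comparison, 551 of 570 values of single members kept their sign and their side of the threshold, or were uncalled both times. Of the rest, 7 gained and 11 lost a call, 10 of these for Nfkb2 in CuO NPs against control (also with no filter, adjusted p = 0.104, and with a pseudocount of 0.1 TPM, 0.0504), and 1, Nfkbiz in CuO NPs + TTM against CuO NPs, turned to -0.18 with median centring and was called. Nfkbia, Nfkb1 and Tnfaip3 kept every call named above under all 19. Some alternatives could move only the p-value, so the sign was fixed in advance there. These were the changed filters, the fit of the compared groups, the replicate block and leaving out a library of the group not compared. Nfkbie passed the filter at 5 TPM only through the controls, so its values against control there are no support. For CuO NPs against control, calls over all genes were 2534 higher with median-of-ratios scaling, 3134 higher and 2071 lower with median centring, and 2619 higher and 2535 lower with quantile normalization, in place of 1518 and 3890. For CuO NPs + TTM against CuO NPs, median centring gave 2741 higher and 4222 lower in place of 4469 and 2384. These settings differ from TPM in the level given to the median gene, and quantile normalization also makes the whole distribution of levels alike between libraries. The cause of the difference in the level of the median gene was not tested. The labels do not say whether replicate numbers pair the libraries. Deviations from group means correlated at -0.127 to 0.00969 over 9 pairs of same-numbered libraries and at -0.0367 to 0.0986 over 18 other pairs. With 3 libraries a group these values show no sign of pairing but cannot exclude it. With the replicate block CuO NPs against control called 1375 genes higher and 3550 lower. With Nfkbib added to the inhibitors, an alternative chosen after seeing the data, the ratio of inhibitor to subunit mRNA averaged 0.590 with CuO NPs + TTM, 0.918 with CuO NPs and 1.03 in controls, in place of 0.281, 0.479 and 0.807. Depth is unknown, so no counting error could be given.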

Other observations

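For each member, the genes of most similar profile were sought among 8883 named genes with a mean of at least 5 TPM (8884 for Nfkbie), by Pearson correlation of log2(TPM + 1). The 9 libraries fall into 3 groups, so such a value mostly reflects 3 group means and is given as a description. Nfkbia was most like Myd88 (0.998) and Gpr35 (0.998), Nfkb1 like Nadk (0.997) and Rbmx (0.996), Nfkbie like Atic (0.996) and Rab20 (0.994), and Nfkbiz like Dpp9 (0.987) and Dgkz (0.987). Tnfaip3 was most like Tagln2 (0.995) and Zdhhc9 (0.992), and Relb like Exosc4 (0.977) and Mettl27 (0.971). Rel, Rela and Bcl3, which were not called in any comparison, reached 0.866 to 0.939 with their nearest genes.

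Nfkb2 was most like Actr1a (0.970), which encodes an actin-related protein of dynactin, and Tapbp (0.964). Actr1a is a neighbour of Nfkb2 on chromosome 19, with 5 protein-coding genes between them. Psd, which ran lower in treated cells, is among those between, and a link of place and profile was not tested. Actr1a had 113, 115 and 124 TPM with CuO NPs + TTM, 108, 112 and 101.4 TPM with CuO NPs, and 99.8, 99.1 and 93.3 TPM in controls.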
